A study of Mus musculus with 6 samples.

Results

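Gluconeogenesis, the making of glucose from lactate, glutamine, glycerol and other small precursors, was followed through 8 genes in kidneys of mouse embryos at embryonic day 16. The genes were Pck1 and Pck2, Fbp1 and Fbp2, G6pc and G6pc3, Pcx and Ppargc1a. They made up 8 of the 13965 rows of the deposited expression table. Pck1 was chosen by its measured log2 difference between mutant and control kidneys in these same libraries, one of the largest of all rows, and the other 7 because they belong to the same pathway, so the difference in Pck1 is given below as a description without a p-value, and its calls are printed only beside the share over all rows. Control kidneys had the genotype WT, miR-17~92 flx/+, that is, 1 floxed copy of the microRNA cluster and no transgene named on the label. Mutant kidneys carried both Six2-TGC and miR-17~92 flx/flx. In these, the Six2-TGC transgene makes Cre recombinase in nephron progenitors and deletes the cluster there and in the cells that descend from them. There were 3 litters, and every litter supplied 1 library of either genotype. Both groups were of the same age and both carried at least 1 floxed allele. Because the control label names no transgene, an effect of the transgene and an effect of the deletion cannot be told apart.

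Gluconeogenesis runs glycolysis backwards except at the irreversible steps, which have enzymes of their own. Pyruvate carboxylase (Pcx) makes oxaloacetate in mitochondria, phosphoenolpyruvate carboxykinase (Pck1 in the cytosol, Pck2 in mitochondria) turns it into phosphoenolpyruvate, fructose-1,6-bisphosphatase (Fbp1, and the muscle isoform Fbp2) acts further up, and glucose-6-phosphatase (G6pc, and the broadly expressed G6pc3) releases free glucose. In the kidney the pathway belongs to the proximal tubule, where Pck1 is strongly regulated by cyclic AMP, glucocorticoids, insulin and acid load, and Ppargc1a is a coactivator of the program. The proximal tubule descends from the nephron progenitors in which the transgene is active.

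The sequences that the deletion bears on directly are the mature microRNAs of the cluster, which lies on mouse chromosome 14. They are printed 5′ to 3′ from RefSeq (GRCm38.p6) with the seed, bases 2 to 8, in capitals. The first 2 share a seed, the third has another, and the 2 miR-19 forms share one.
miR-17-5p: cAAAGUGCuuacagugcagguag
miR-20a-5p: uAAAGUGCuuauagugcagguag
miR-18a-5p: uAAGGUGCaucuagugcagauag
miR-19a-3p: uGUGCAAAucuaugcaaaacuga
miR-19b-3p: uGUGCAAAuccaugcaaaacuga
miR-92a-3p: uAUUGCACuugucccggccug

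A 7-base match to one of these seeds was present in the 3′ UTR of 2 of the 8 genes, Pck1 and G6pc. Pck1 held 1 match to the miR-18a seed, at base 121 of its 627-base 3′ UTR, and G6pc held 1 match to the seed of miR-17 and miR-20a, at base 1033 of 1104. Both are shown with the match in capitals and 11 bases to each side.
Pck1, match to miR-18a: agatcagaaaaGCACCTTttaatagtcag
G6pc, match to miR-17 and miR-20a: acccacaccaaGCACTTTgtttctaatat

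Among the 12528 3′ UTRs searched, 13.4% held the match GCACTTT to miR-17 and miR-20a, 8.49% held GCACCTT to miR-18a, 11.9% held TTTGCAC to miR-19 and 7.03% held GTGCAAT to miR-92a. At least 1 of the 4 was in 31.0% of them. Matching is a property of the letters and says nothing about whether a site is used. The median 3′ UTR searched had 1004 bases.

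The upstream sequences of the 2 phosphoenolpyruvate carboxykinase genes are shown because this was the isoenzyme pair whose proportions parted the groups. That parting follows from the choice of Pck1 by its difference. They come from RefSeq (GRCm38.p6), are read on the gene's strand and end at the base before the first annotated transcript. The Pck1 stretch is chr2:173152823-173153047 and the Pck2 stretch is chr14:55540016-55540265, both on the plus strand. Capitals mark matches to the motifs listed after them.
Pck1: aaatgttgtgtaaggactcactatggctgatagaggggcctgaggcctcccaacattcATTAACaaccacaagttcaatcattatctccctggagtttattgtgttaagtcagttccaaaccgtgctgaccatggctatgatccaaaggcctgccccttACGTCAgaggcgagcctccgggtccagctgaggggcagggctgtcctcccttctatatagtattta
Pck2: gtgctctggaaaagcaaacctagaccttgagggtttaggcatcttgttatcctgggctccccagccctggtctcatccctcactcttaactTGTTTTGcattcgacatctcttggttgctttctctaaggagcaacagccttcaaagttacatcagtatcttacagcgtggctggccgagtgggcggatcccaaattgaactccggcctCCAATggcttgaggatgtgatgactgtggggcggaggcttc

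Motifs were searched on both strands in windows of 300 bases, from 250 before to 50 after the RefSeq start, which gave 9 windows for the 8 genes because Pcx has 2 starts. Positions count from the RefSeq start. For Pck1 the last 25 bases before that start lie inside annotated transcripts and were left out of the stretch shown. ACGTCA, the core of the cyclic AMP response element, lay 91 bases upstream of the Pck1 start and 50 bases upstream of the Ppargc1a start. It was in 7.51% of all 32851 windows. The full element TGACGTCA was in none of the 9 windows and in 1.79% of all. GTTAAT, a partial site of the HNF1 factors of the tubule epithelium, lay 192 bases upstream of Pck1, where it reads ATTAAC on the gene's strand, and was also present upstream of G6pc (7.10% of all windows). TGTTTTG, an insulin response element, was found for Pck2 (159 bases upstream), Fbp2 and G6pc (6.28% of all). TATAAA was present for G6pc (13.6% of all), CCAAT in 5 of the 9 windows (37.4% of all), AGGTCA in 2 (16.3%), the E-box CACGTG in 3 (7.15%), and the forkhead site TGTTTAC in none (3.65%). Pck1 and Pck2 shared none of these motifs.

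The libraries held 43804667 to 54913325 reads, so 1 CPM (the deposited unit, reads scaled to a common library size) stands for 43.8 to 54.9 reads. All 12 kidney markers examined, from the progenitor gene Six2 to the collecting duct gene Aqp2, had a row in the table. The targeted locus was not a clean check of the labels: its row joins 7 gene identifiers, the host transcript Mir17hg among them, and stood at 34.1, 36.4 and 23.0 CPM in the control kidneys of litters 1, 2 and 3 and at 53.6, 39.8 and 44.6 CPM in the mutant kidneys. It was thus higher in every mutant library than in any control library, and its reads cannot be split between the deleted segment and the rest of the transcript. All 8 gluconeogenic genes passed the filter on low values, and none shared its row with another gene.

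Pck1, which encodes the cytosolic phosphoenolpyruvate carboxykinase and controls the entry of carbon into glucose synthesis, was higher in every mutant kidney than in any control kidney. It measured 12.3, 10.1 and 13.4 CPM in the control kidneys of litters 1, 2 and 3, and 42.3, 31.9 and 29.7 CPM in the mutant kidneys. The lowest mutant value was thus well above the highest control value. Group means were 11.9 ± 1.68 CPM (SD, n = 3) and 34.6 ± 6.76 CPM. The log2 difference of log2(CPM + 0.5) was 1.49 (SE 0.15 from genotype alone, 0.12 with litter as a block), a 2.82-fold difference, and ranked 7 of the 13766 rows tested.

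The size of the Pck1 difference varied between litters. The ratio of mutant to control CPM was 3.45 in litter 1 (95% counting interval 3.13 to 3.8), 3.17 in litter 2 (2.85 to 3.52) and 2.22 in litter 3 (2.02 to 2.44). These exact binomial intervals cover counting error only, and that of litter 3 does not overlap the other two. Pck1 was read 443 to 661 times in control and 1385 to 2045 times in mutant libraries, so the spread between litters exceeds the sampling of reads. Among all rows, Pck1 ranked 14, 6 and 21 from the top by its within-litter difference in litters 1, 2 and 3.

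**Figure D1:**
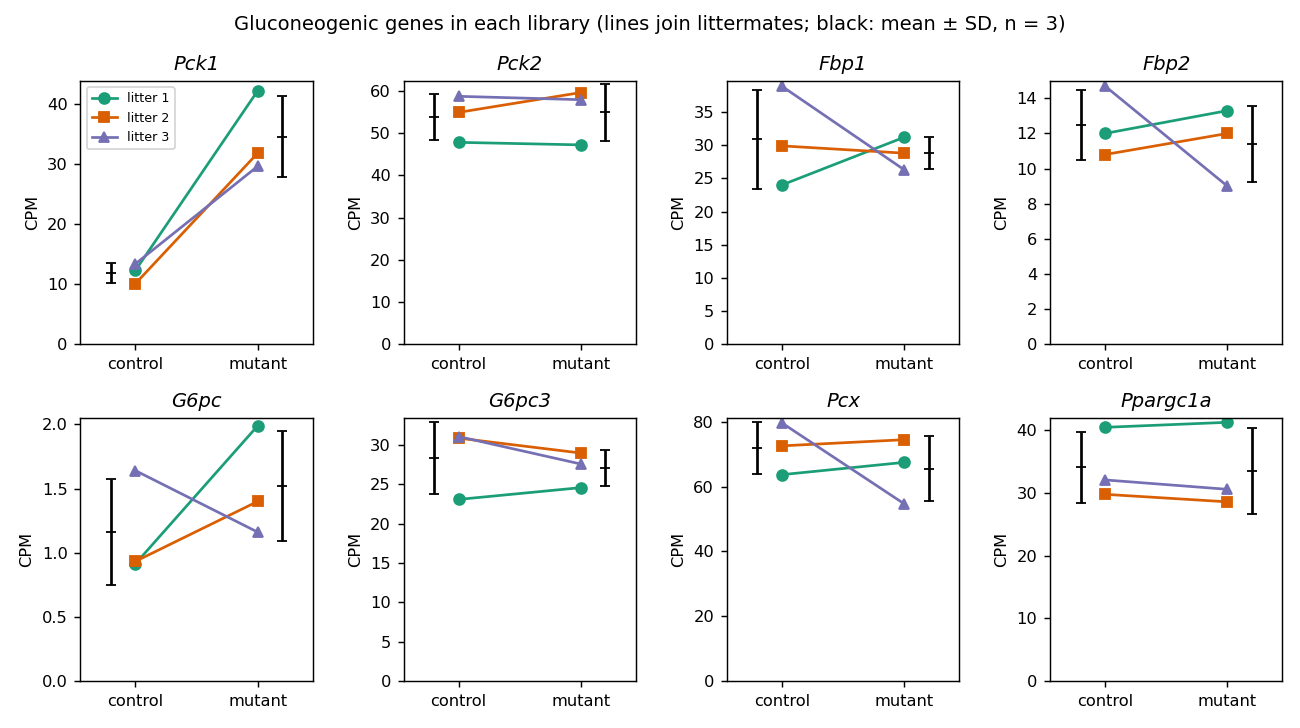
CPM (y axis, starting at 0 and scaled for each gene) of the 8 gluconeogenic genes in control and mutant kidneys; each line joins the 2 libraries of a litter, and black bars are the mean ± SD of 3 libraries. Pck1 is the one gene whose mutant libraries (29.7 to 42.3 CPM) all lie above its control libraries (10.1 to 13.4 CPM).

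Pck2, the mitochondrial isoenzyme, was level between the groups. It measured 47.8, 54.9 and 58.7 CPM in controls and 47.2, 59.6 and 57.9 CPM in mutants. The 2 ranges nearly coincided, and the log2 difference was 0.03 (SE 0.12). Within litters the ratio was 0.989, 1.08 and 0.987. The annotation places the antisense gene Gm10876 across 53 exon bases of Pck2, and the strand setting of the counting is not given in the sources used here, so a small part of these reads cannot be assigned to a strand.

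Compared per kilobase of transcript, the balance of the 2 isoenzymes differed between the groups. Pck1 lay at 4.62, 3.78 and 5.02 CPM per kb in control and at 15.9, 12 and 11.2 CPM per kb in mutant kidneys, while Pck2 lay at 14, 16.2 and 17.3 and at 13.9, 17.5 and 17.0 CPM per kb. Pck1 therefore made up 24.7%, 19.0% and 22.5% of the summed Pck1 and Pck2 level in control kidneys and 53.4%, 40.6% and 39.6% in mutant kidneys. In the mutant kidney of litter 1 the cytosolic form was the more abundant of the pair. Since Pck1 was chosen by its difference and Pck2 was level, the shift in share follows from the choice.

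Pcx, the mitochondrial enzyme that makes oxaloacetate from pyruvate, measured 63.7, 72.6 and 79.7 CPM in controls and 67.5, 74.5 and 54.7 CPM in mutants. The groups overlapped, with the mutant kidney of litter 3 the lowest of the 6 and its control littermate the highest. The log2 difference was -0.14 (SE 0.13), made up of 0.08, 0.04 and -0.54 in the 3 litters.

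Fbp1, the fructose-1,6-bisphosphatase of liver and kidney, measured 24.0, 29.9 and 38.9 CPM in controls and 31.2, 28.8 and 26.3 CPM in mutants. Here too the groups overlapped, and the order of the litters was turned around between them. The log2 difference was -0.08 (SE 0.16), with 0.37, -0.05 and -0.55 in litters 1, 2 and 3. The opposite signs in litters 1 and 3 are both beyond counting error, with ratios of 1.3 (1.2 to 1.41) and 0.677 (0.63 to 0.728).

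Fbp2, the muscle form, had lower values throughout, at 12, 10.8 and 14.7 CPM in controls and 13.3, 12 and 9 CPM in mutants. The log2 difference was -0.13 (SE 0.17), and the sign again turned in litter 3 (0.14, 0.14 and -0.68). Per kilobase, Fbp1 made up 64.6% to 71.7% of the summed Fbp1 and Fbp2 level in control and 68.2% to 72.8% in mutant kidneys, so their proportions did not part the groups. Of the muscle markers examined, 3 of 10 had a row, and the actin gene Acta1, the myosin genes Myh3 and Myh8 and the creatine kinase gene Ckm had none. The 3 were Des, Tnnt3 and Mylpf, with mean levels of 42.9, 5.09 and 1.31 CPM and log2 differences of -0.13, 0.26 and -0.73. Mylpf, at 39 to 107 reads per library, was lower in the mutant kidney of every litter. Limma called it with litter as a block (adjusted p 0.0304) but not from genotype alone (0.112). The part of these markers in the levels of muscle isoforms was not tested.

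G6pc, the catalytic subunit that releases glucose in liver and kidney, was near the lower end of what the table lists. It measured 0.913, 0.932 and 1.64 CPM in controls and 1.99, 1.40 and 1.16 CPM in mutants, from 40 to 96 reads per library. The groups overlapped, and the log2 difference was 0.29 (SE 0.22). The ratio was 2.18 in litter 1 (counting interval 1.49 to 3.23), 1.51 in litter 2 (1.02 to 2.26) and 0.707 in litter 3 (0.491 to 1.01), so at this depth the difference in litter 3 was within counting error.

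G6pc3, the ubiquitous form, measured 23.1, 30.9 and 31.1 CPM in controls and 24.6, 29.0 and 27.6 CPM in mutants. The log2 difference was -0.06 (SE 0.13). Per kilobase G6pc was 1.93% to 3.32% of the summed level of this pair in control and 2.66% to 5% in mutant kidneys, and the highest share was again in the mutant kidney of litter 1.

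**Figure D2:**
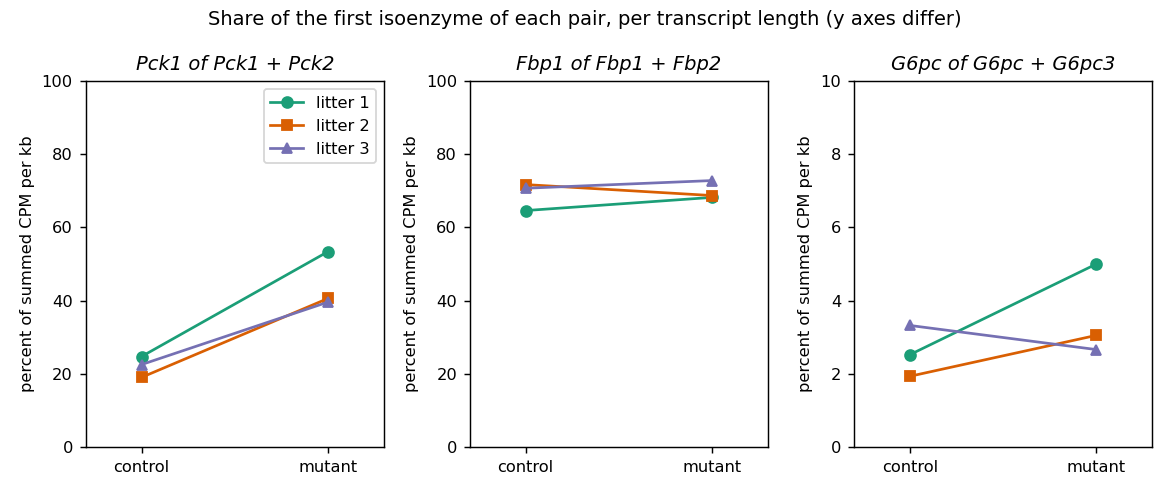
Share of the first gene of each isoenzyme pair in the summed CPM per kilobase of transcript (y axis, percent; the right panel ends at 10%) in control and mutant kidneys, with lines joining litters. The Pck1 share lies at 19.0% to 24.7% in control and 39.6% to 53.4% in mutant kidneys, while the Fbp1 and G6pc shares overlap between groups. That the Pck1 share parts the groups follows from the choice of Pck1 by its difference.

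Ppargc1a, the coactivator PGC-1α that drives gluconeogenic and mitochondrial genes, differed more between litters than between littermates. It measured 40.5, 29.8 and 32.1 CPM in controls and 41.3, 28.6 and 30.6 CPM in mutants. Both kidneys of litter 1 were the highest, and the differences within litters were 0.03, -0.06 and -0.06. Its within-litter differences were the most alike of the 8 genes, with a range of 0.09 on the log2 scale, against 1.18 for G6pc.

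By length-corrected level the 8 genes of control kidneys ordered as Fbp1 (20.9 ± 5.06 CPM per kb, SD, n = 3), G6pc3 (18 ± 2.92), Pcx (17.4 ± 1.93), Pck2 (15.8 ± 1.63), Fbp2 (9.25 ± 1.47), Ppargc1a (5.28 ± 0.876), Pck1 (4.47 ± 0.631) and G6pc (0.481 ± 0.171). The first 4 overlap in their ranges, as do Ppargc1a and Pck1, whereas Fbp2 and G6pc each stand clear of their neighbours. In mutant kidneys Pck1 (13.0 ± 2.54 CPM per kb) lay above Fbp2 (8.44 ± 1.62) and Ppargc1a (5.19 ± 1.06), with no overlap of ranges in either case.

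Of the 8 genes, Pck1 alone was called with genotype as the only term (limma on log2(CPM + 0.5), adjusted p below 0.05 over all rows), where 0.559% of all rows were called, 0.363% as higher and 0.196% as lower in mutant kidneys. It was also the 1 gene called with litter as a block, where 11.4% of rows were called, 7.93% as higher and 3.51% as lower. Pck1 was likewise the 1 gene whose groups did not overlap, a state in which 10.2% of all rows had the mutant libraries above and 7.12% had them below. Since the large Pck1 difference is why the genes were chosen, nothing is read from these counts. The median log2 difference of the 8 was -0.04, and -0.06 without Pck1, beside 0.01 over all rows.

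The 7 other genes were also compared litter by litter. In litter 1, 6 of the 7 were higher in the mutant kidney, with a median log2 difference of 0.09. In litter 2 there were 4 of 7, with a median of 0.04. In litter 3 all 7 were lower in the mutant kidney, with a median of -0.37, while the median of all rows was 0.02. Pck1 was higher in the mutant kidney in litter 3 as well, by 1.12 on the log2 scale. The genes may not be counted as independent, since they share the same 2 libraries in each litter.

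**Figure D3:**
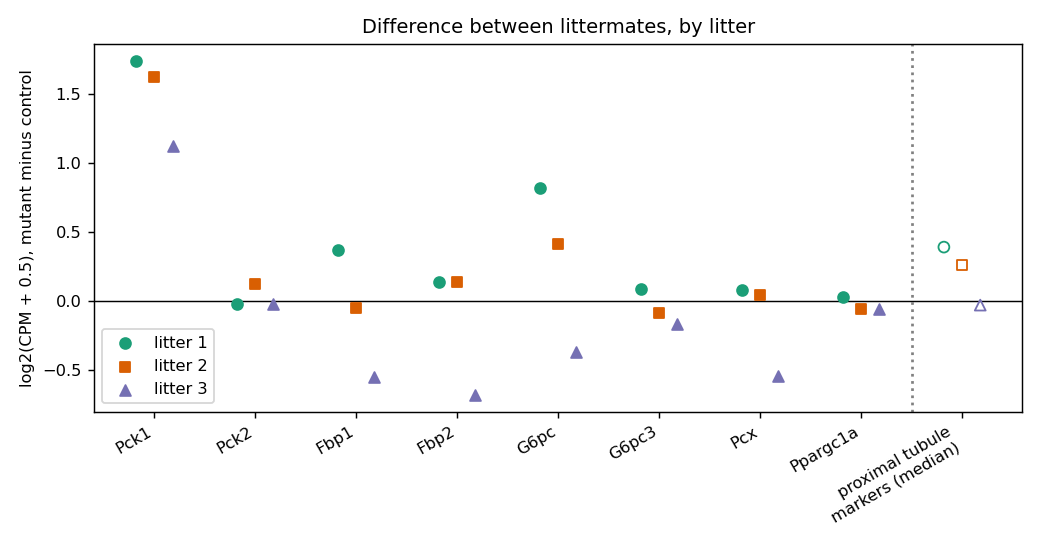
Difference in log2(CPM + 0.5) between the mutant and the control kidney of each litter (y axis) for the 8 genes, with the median of 25 proximal tubule markers at the right as open symbols. Pck1 lies at 1.12 to 1.74, and in litter 3 (triangles) every other gene and the marker median lie below 0.

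**Figure D4:**
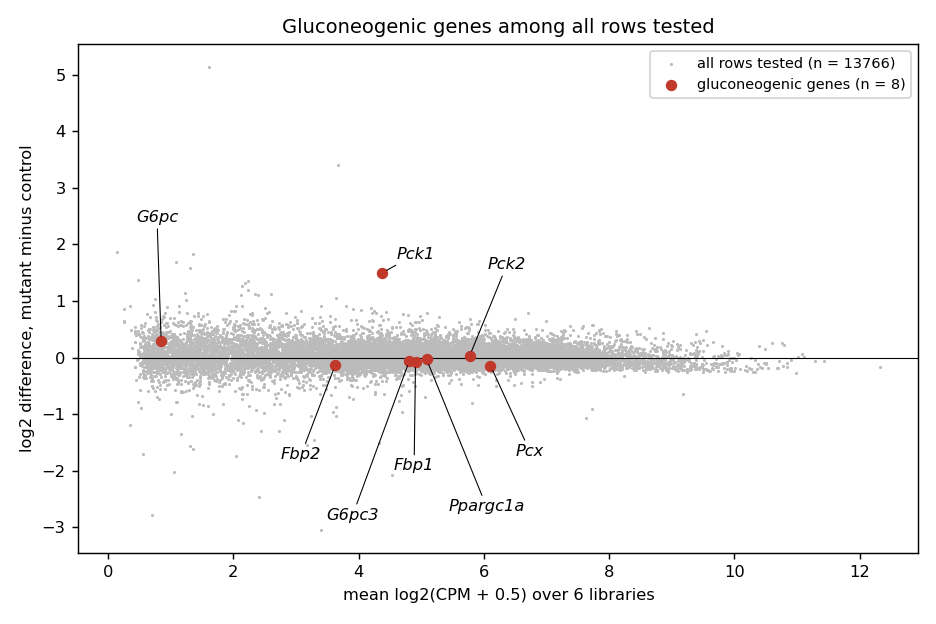
Log2 difference, mutant minus control (y axis), against mean log2(CPM + 0.5) over the 6 libraries (x axis) for all 13766 rows tested, with the 8 gluconeogenic genes in red. Pck1 lies at 1.49 outside the cloud of rows of its abundance, and the other 7 lie inside it, between -0.14 and 0.29.

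Pck1 is a gene of the proximal tubule, so 25 markers of that segment were set beside it, among them Slc5a2, which also counts as a glucose transporter in the pathway lists. With genotype alone none of the 25 was called by limma, 6 having an unadjusted p below 0.05 as higher and 1 as lower. Over both directions, 1551 of the 13766 rows tested had such a p. With litter as a block 7 of 25 rose in mutant kidneys and none fell (unadjusted 10 and 2), where 7.93% of all rows rose and 3.51% fell. An unadjusted p below 0.05 was then found for 4022 rows, over both directions. With the block, the number that rose was 2 without litter 1, 7 without litter 2, 17 without litter 3 and 4 with length and GC correction. In the same order, 304 of 13565, 951 of 13561, 1506 of 13576 and 425 of 13517 of all rows rose. Without litter 2, 1 marker fell, and none fell in the other settings of this group. The 4 called markers of lowest adjusted p were Keg1, the endocytic receptor gene Lrp2, the water channel gene Aqp1 and the bicarbonate transporter gene Slc4a4.

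Keg1, a kidney-expressed acyltransferase-family gene, measured 48.4, 39.9 and 45.4 CPM in controls and 76.7, 65.0 and 61.6 CPM in mutants (log2 difference 0.60, SE 0.11, adjusted p 0.0528 from genotype alone and 0.00219 with litter as a block). Lrp2, which encodes megalin, measured 357, 298 and 340 CPM in controls and 541, 488 and 408 CPM in mutants (0.52, SE 0.11, adjusted p 0.0744 and 0.00649). The groups did not overlap for either gene, and both stayed called with the block when any 1 litter was left out. Lrp2 lost the call when length and GC content were corrected for together with the block, with a difference of 0.27 and an adjusted p of 0.0871.

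Aqp1 differed by 0.35 (SE 0.10, adjusted p 0.178 and 0.0149 with the block) and Slc4a4 by 0.54 (SE 0.18, 0.282 and 0.0170). Their calls were lost without litter 1 (0.0904 and 0.0753). Over all 25 markers the median log2 difference was 0.20, with 19 above 0 and 6 below, and single markers ranged from -0.50 to 0.69. The summed level of the list was 1496.5, 1394.4 and 1604.3 CPM in the control kidneys of the 3 litters and 1974.3, 1810.4 and 1602.3 CPM in the mutant kidneys.

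The markers and Pck1 moved by different amounts in each litter. The median marker difference was 0.39, 0.26 and -0.03 in litters 1, 2 and 3, with 22, 21 and 11 of the 25 markers higher in the mutant kidney. Pck1 exceeded every one of the 25 markers in all 3 litters, and stood above their median by 1.35, 1.35 and 1.15. Since Pck1 was chosen by this same difference and the markers were not, that order follows from the choice. Relative to the median marker level of its own library, Pck1 lay at -1.50, -1.69 and -1.53 on the log2 scale in control and at -0.08, -0.32 and -0.18 in mutant kidneys, a difference that carries the same choice. The part of the marker levels in the Pck1 difference was not tested. In RNA from whole kidneys, more cells of a type and more RNA per cell cannot be told apart.

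**Figure D5:**
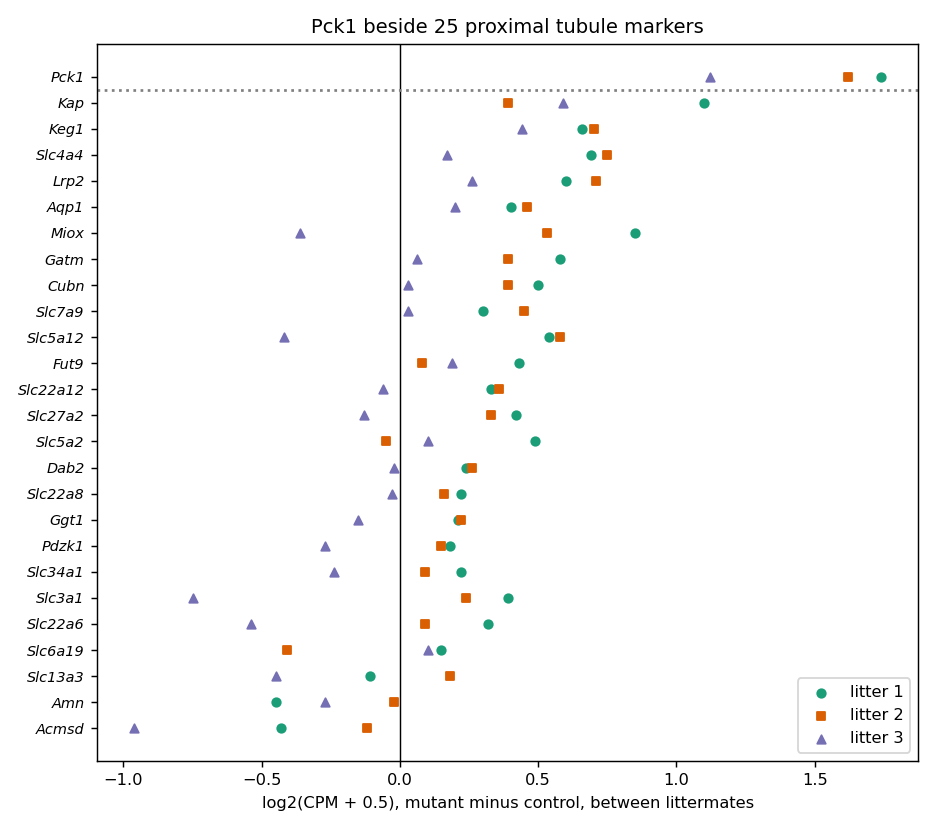
Difference in log2(CPM + 0.5) between mutant and control littermates (x axis) for Pck1 (top) and 25 proximal tubule markers (one row each, ordered by their mean difference), with 1 symbol per litter. In every litter Pck1 (1.12 to 1.74) lies to the right of all 25 markers, and the litter 3 triangles of the markers are centred at -0.03.

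The rest of the pathway was followed in 5 further lists with 89 rows between them. With genotype alone 1 of the 89 was called, as lower (0.196% of all rows were). With litter as a block 6 rose and 4 fell, counts near the 7.93% and 3.51% of all rows that did so. Without litter 1 none rose and 1 fell, without litter 2 these counts were 4 and 5, and without litter 3 they were 13 and 5. Over all rows, 304 rose and 77 fell of 13565 without litter 1, and 951 and 452 of 13561 without litter 2. Without litter 3, 1506 rose and 842 fell of 13576. The median log2 difference of the 89 was 0.01, the same as over all rows. In 6 of them the mutant libraries all lay above the control libraries, and in 8 below, again near the shares over all rows (10.2% and 7.12%). The unadjusted counts given below for single lists stand beside 1551 of all 13766 rows with genotype alone. With the block there were 4022 such rows, over both directions.

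Enzymes of the reversible steps, which carry flux in both directions, were mostly a little lower in mutant kidneys. Of 12 genes, 11 had a difference below 0, as had 6461 of the 13766 rows tested, and the median was -0.10. In all 3 litters 7 of the 12 were lower, as were 3052 of the 13766 rows. Pgam2, the muscle form of phosphoglycerate mutase, fell from 5.64, 5.73 and 6.23 CPM in control to 2.75, 3.35 and 3.00 CPM in mutant kidneys. Its log2 difference was -0.85 (SE 0.14, adjusted p 0.0257 from genotype alone and 0.00583 with the block). With 1 library left out at a time it was still called without control 1 (0.0293), and had an adjusted p of 0.0532 to 0.146 without each of the others. With the block Eno3, the muscle enolase, also fell, from 26.9, 28.9 and 25.3 to 19.6, 23.3 and 19.4 CPM (-0.38, adjusted p 0.0146, and 0.102 without litter 1). Pgk1, phosphoglycerate kinase, fell by 0.14 on the log2 scale (adjusted p 0.0417 with the block, 0.285 without litter 1, 0.124 without litter 2 and 0.0724 with length and GC correction).

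Among the enzymes that oppose gluconeogenesis at the irreversible steps, 13 in all, the median difference was 0.04. None was called with genotype alone by limma (2 at an unadjusted p below 0.05, both higher), and 1 with the block. This was Pfkfb3, which makes the fructose-2,6-bisphosphate that favours glycolysis, at 29.3, 28.7 and 31.6 CPM in controls and 34.2, 33.5 and 40.7 CPM in mutants (0.27, adjusted p 0.378 from genotype alone and 0.0345 with the block). Its adjusted p with the block was 0.128 without litter 1, 0.0628 without litter 3 and 0.0507 with length and GC correction. Pkm, pyruvate kinase of muscle and embryonic tissue and the most abundant of the list, measured 942 ± 81.7 CPM in controls and 880 ± 68.6 CPM in mutants (-0.10, adjusted p 0.111 with the block).

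Substrate entry, by way of lactate, amino acids, glycerol and the malate-aspartate shuttle, was represented by 25 genes with a median difference of -0.07. With genotype alone limma called none (1 at an unadjusted p below 0.05, lower), and with the block 1 fell. This was Got1, the cytosolic aspartate aminotransferase, at 61.8 ± 3.63 CPM in controls and 53.1 ± 3.95 CPM in mutants (-0.22, adjusted p 0.0339 with the block, 0.189 without litter 1). Ldha, lactate dehydrogenase A, measured 831 ± 34.3 and 772 ± 42.4 CPM (-0.11, adjusted p 0.0819 with the block).

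Genes of glucose release and transport numbered 8, with a median difference of 0.04, and limma called none of them with or without the block (1 higher and 1 lower at an unadjusted p below 0.05 in each). Slc37a4, the transporter that brings glucose-6-phosphate to the phosphatase, measured 43.1, 36.0 and 41.4 CPM in controls and 42.5, 39.3 and 34.2 CPM in mutants. Slc2a1, the glucose transporter GLUT1, measured 65.0 ± 5.38 and 70.9 ± 10.4 CPM.

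Regulators of the pathway, among them the factors that act on the Pck1 promoter, were represented by 31 of 32 genes, Nr0b2 having no row. Their median difference was 0.09, with 25 above 0 and 6 below, beside 7305 and 6461 of all rows. Limma called none with genotype alone (3 at an unadjusted p below 0.05, all higher) and 4 of 31 with the block, all higher in the mutant kidney in 3 of 3 litters, where 7.93% of all rows rose. Hnf4a, a nuclear receptor of the proximal tubule, rose from 95.1, 98.6 and 111 to 115, 123 and 118 CPM (0.23, adjusted p 0.0339 with the block). Nr3c1, the glucocorticoid receptor, differed by 0.21 (0.0341), the insulin receptor substrate Irs2 by 0.38 (0.0354) and the retinoid receptor Rxra by 0.20 (0.0417). All 4 lost the call without litter 1 (0.128 to 0.191). Hnf4a, Nr3c1 and Rxra also lost it without litter 2 (0.0758, 0.098 and 0.153) and Irs2 without litter 3 (0.0715), and with length and GC correction added to the block it was lost for Hnf4a, Irs2 and Rxra (0.116, 0.146 and 0.188). Creb1, the factor of the cyclic AMP response element, measured 108 ± 14 CPM in controls and 109 ± 13.3 CPM in mutants, and its coactivator Crtc2 54.4 ± 4.49 and 54.5 ± 4.34 CPM; both were picked for their role after the values were seen.

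The rows whose pattern over the 6 libraries was most like that of Pck1 were Ptgs2, Cyp2j13, Pappa2, Cbln4 and Slco1a4. Likeness was the root-mean-square difference between profiles of log2(CPM + 0.5), each centred on its own mean, over 11017 rows, and the values for these 5 were 0.26, 0.29, 0.33, 0.33 and 0.36. Ptgs2, the inducible cyclooxygenase, measured 4.09, 2.29 and 3.11 CPM in controls and 8.57, 6.34 and 6.98 CPM in mutants. Cyp2j13, a cytochrome P450, measured 7.12, 7.73 and 9.80 and then 26.0, 13.6 and 14.9 CPM, with the mutant kidney of litter 1 highest, as for Pck1. Pappa2, a protease of insulin-like growth factor binding proteins, measured 12, 7.77 and 9.72 and then 20.4, 18.3 and 17.2 CPM. The secreted synaptic organiser gene Cbln4 and the organic anion transporter gene Slco1a4 had log2 differences of 1.12 and 0.90. These genes were found by their likeness to a gene that differs between the groups, so their own differences follow from the choice. Among the gluconeogenic genes G6pc was the nearest to Pck1, at 0.62, but 443 rows were nearer, and the other 6 lay at 0.78 to 0.84.

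Cell types outside the nephron in which Pck1 is also strongly expressed, or which could adhere to a dissected kidney, were examined by their markers. Of 11 adipocyte markers 2 had a row, Fabp4, which is also an endothelial gene, at 159 ± 21.9 CPM in controls and 165 ± 14.8 CPM in mutants, and Lipe at 7.02 ± 0.534 and 7.12 ± 1.06 CPM. Adipoq, Plin1, Cidec, Lep, Retn, Ucp1, Cidea, Cfd and Plin4 had none. Of 12 hepatocyte markers 6 had a row, with summed levels of 133 to 142 in control and 101 to 116 CPM in mutant kidneys, and Apoa1, Apoa2, Ahsg, Cps1, Tat and Otc had none. Afp made up most of that sum and fell with the block, from 125 ± 4.38 to 93.1 ± 8.32 CPM (-0.43, adjusted p 0.00481). Albumin (Alb) lay at 0.528 to 2.37 CPM in 5 libraries and at 11.6 CPM in the mutant kidney of litter 3. The other hepatocyte markers did not share this pattern. In that library Fgb was also at its highest (3.06 CPM), whereas Afp (87.8 CPM) and Ttr (2.49 CPM) were at their lowest. Serpina1a (3.49 CPM) and Fga (1.31 CPM) were at neither end. Fbp2 and Pcx were at their lowest there, and the other gluconeogenic genes had their lowest values in other libraries. The part of the hepatocyte markers in the gluconeogenic genes was not tested.

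Adrenal markers had a row for 2 of 10 (Star and Mc2r), with a summed level of 4.49 to 5.64 in control and 4.47 to 4.99 CPM in mutant kidneys. All 9 macrophage markers had a row. Their summed level was 120, 129 and 124 CPM in controls and 156, 160 and 127 CPM in mutants, thus higher mainly in litters 1 and 2, the litters of the larger Pck1 difference. With the block limma called 1 of the 9 as higher, where 7.93% of all rows were. This was the mannose receptor gene Mrc1 (23.3 ± 3.12 to 30.8 ± 4.73 CPM, adjusted p 0.0208, but 0.134 without litter 1 and 0.0673 with length and GC correction). The part of the macrophage markers in the Pck1 difference was not tested.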

How the data were processed

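RNA was extracted with Trizol and sequenced from Illumina TruSeq libraries, per the labels' protocols. The deposited values are CPM, which the authors scaled to the library total. Reads were aligned with TopHat2 2.0.9, and Picard, SAMtools and build NCBIM37 are also named in the submitters' processing notes; counting program, annotation and strand setting are not given in the sources used here. The deposited table joins overlapping genes in 526 of its 13965 rows. Symbols (13695 rows), transcript lengths and 3′ UTRs came from GENCODE M21, and microRNA and upstream sequences from RefSeq. Both are on GRCm38, not the authors' build, so their coordinates are not those of the alignment.

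Rows reaching 1 CPM in 3 or more libraries (13766) were tested on log2(CPM + 0.5) by limma 3.58.1 (R 4.3.3) with a mean-variance trend. Benjamini-Hochberg adjustment covered all tested rows, and calls needed an adjusted p below 0.05. Genotype was the sole term, with litter added as a block in the alternative. The litters come from the labels: deviations from the group means correlated across genes at 0.619, 0.446 and 0.312 within litters and at -0.514 to 0.172 between them. The model was tested on simulated data. P-values from genotype alone rest on the spread between libraries within a group. Those with the block rest on how far the difference between littermates varied over these 3 litters. Whether a library pools several embryos is not given. Read numbers were computed from the smallest step between CPM values.

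The genes, the lists and the rules were chosen with earlier results of these data known. Genes named in the lists were those called without the block, then with it, by adjusted p, up to 4 a list, made up to 2 by mean CPM (1 such gene is not reported here); for the other cell types, the markers of highest mean CPM and those with no row. Cbln4 and the like were the 5 nearest profiles with a mean of at least 5 CPM.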

Additional observations from a re-analysis of the deposited data

How the results depend on the processing

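The Pck1 difference lay between 1.34 and 1.68 on the log2 scale in all 17 alternatives run (pseudocounts of 0.1 and 1, no filter, median-ratio and trimmed-mean scaling, correction for length and GC content, the replicate block, both together, and leaving out each library or each litter). The sign of the others depended on the setting: it turned in 6 of 17 alternatives for Pck2, in 3 for G6pc3 and Ppargc1a, in 2 for Fbp1 and Fbp2, in 1 for Pcx and in none of 16 for G6pc. Leaving out litter 3 gave differences of 0.16 for Fbp1, 0.14 for Fbp2 and 0.06 for Pcx. Slc37a4, at -0.06, came to 0.05 without litter 3 with the block and to -0.13 to 0.03 when single libraries were left out (0.03 without mutant 3); the cause was not tested.

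Pairing by litter (the replicate block) raised the rows called from 77 to 1574, the pathway genes from 0 to 6 higher and from 1 to 4 lower, and the proximal tubule markers from 0 to 7 higher. With length and GC correction alone 163 rows and 1 marker were called. With this correction and the block there were 822 rows, 2 pathway genes higher and 3 lower, and 4 markers, and 51.7% of calls were higher in mutant kidneys against 69.3% with the block alone. With the block, leaving out litter 1, 2 or 3 gave 381, 1403 and 2348 rows, 0, 4 and 13 pathway genes higher, 1, 5 and 5 lower, and 2, 7 and 17 markers higher. Without litter 2, 1 marker was called lower. Leaving out 1 library without the block gave 22 to 100 rows, 0 to 1 pathway genes lower and 0 to 2 markers. A test on read counts was not run. The recovered numbers were whole reads in every library, but the deposited values hold too few low ones to check the size of the unit. The read numbers and counting intervals given above rest on that unit. G6pc rested on 40 to 96 reads per library, and its ratios in litters 1 and 3 differed beyond counting error.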
